A study of Mus musculus with 9 samples.

Results

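The 3 large families of conjugation enzymes of the mouse liver, the glutathione S-transferases (GST), the UDP-glucuronosyltransferases (UGT) and the sulfotransferases (SULT), were followed through liver regeneration. They were taken as the protein-coding genes of the deposited table whose names begin with Gst and a class letter (a, k, m, o, p, t or z) and a number, with Ugt1, Ugt2 or Ugt3, or with Sult and a number. This gave 59 of the 43346 genes listed, of which 21 were GST, 20 were UGT and 18 were SULT genes. These enzymes attach a water-soluble group to reactive or fat-soluble compounds so that bile or urine can carry them away. GST enzymes add glutathione to electrophiles, UGT enzymes add glucuronic acid to bilirubin, steroids, bile acids and drugs, and SULT enzymes add a sulfonate group to phenols, steroids and bile acids. Hepatocytes hold most of the liver's conjugating capacity, and many of the genes respond to the nuclear receptors PXR, CAR and PPARα, to NRF2 and to the pattern of growth hormone.

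Whole liver of C57/BL6 mice (C57BL/6J by the study's methods) aged 12 weeks, male by the study's methods, was profiled by RNA-Seq in 3 groups of 3 livers. The baseline group consisted of resection specimens removed at 70% hepatectomy (0 h) from mice given vehicle. Remnants of vehicle-treated mice and of mice treated with NSC-87877 (NSC), a small molecule inhibitor of the phosphatase SHP2 that also acts on SHP1, were taken 40 h after surgery. NSC was injected i.p. at 7.5 mg/kg per dose, given as 2 doses per day (15 mg/kg/day), from 12 h before surgery by the sample records and from a day before it by the methods. The records name no genetic modification. The 3 vehicle baselines served as the reference for both treatments, and specimens resected from mice on NSC were not used here. The records do not state whether specimens with the same replicate number came from the same mouse.

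Each library held between 23997363 and 42887589 counts (31187349 to 33943842 at baseline, 27956396 to 42887589 with vehicle and 23997363 to 30201051 with NSC). Of the 59 genes, 46 passed the filter on low counts and were tested among 15024 genes in all. The other 13, which included *Sult2a1* and *Sult3a1*, had at most 5 counts in any library, and 6 of them had none. NSC replicate 1 stood apart from the other NSC livers. On the second principal component of all genes, which held 13.2% of the variance, it lay at -31.0 beside the vehicle livers (-28.1 to -13.4), whereas NSC replicates 2 and 3 lay at 32.5 and 54.0. Counts of calls, summed levels and the differences between treatments that change most without this liver are also given without it. Levels of 1 gene are given as TMM-normalized CPM, counts scaled to the size of the library, and levels of different genes are compared as FPKM, which also divides by gene length. A gene was called changed at a Benjamini-Hochberg adjusted p under 0.05 over all genes tested in edgeR's quasi-likelihood test, and SE is the standard error of the log2 fold change. Values in parentheses after a level are log2 fold changes from baseline, vehicle first where both are given. The livers of a group are recorded as separate samples, and p-values measure the spread between them.

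Conjugation enzyme transcripts were mostly lower 40 h after hepatectomy. With vehicle, 30 of the 46 tested genes were called, of which 28 fell and 2 rose, against 23.7% of all genes tested (11.0% lower and 12.7% higher). With NSC, 25 were called, of which 23 fell and 2 rose, against 34.7% of all genes (16.5% lower and 18.2% higher). In 34 genes all vehicle livers lay below all baseline livers and in 3 above them (22.0% and 24.2% of all genes), and with NSC the counts were 25 and 4 (23.1% and 24.0%). The median log2 fold change of the 46 genes was -0.78 with vehicle and -0.74 with NSC, while that of all genes was 0.01 in both comparisons. The 9 *Ugt1a* genes share most of their counts (described below with the UGT1 family), and with *Ugt1a1* alone standing for them 22 of 38 genes were called with vehicle and 17 with NSC. The median log2 fold change of these 38 genes was -0.86 with vehicle and -0.54 with NSC. The same 21 genes were called in both treatments and all kept their direction, 9 were called with vehicle only and 4 with NSC only. These comparisons share their baseline livers, and no gene of the 46 was called in the direct comparison of NSC with vehicle. The vehicle count was 18 without baseline replicate 1, 18 without baseline replicate 3 and 19 without vehicle replicate 1, with 15.2%, 14.8% and 15.4% of all genes called. It was 38 (3 rose and 35 fell) when only the 2 groups compared were fitted, with 30.5% of all genes called. The NSC count was 16 without baseline replicate 1, with 26.9% of all genes called. It was 23 without NSC replicate 1 (5 rose and 18 fell), with 33.7% of all genes called. With library size as the only scaling, 5 genes rose and 18 fell with NSC, where the median of all genes was 0.15.

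**Figure D1:**
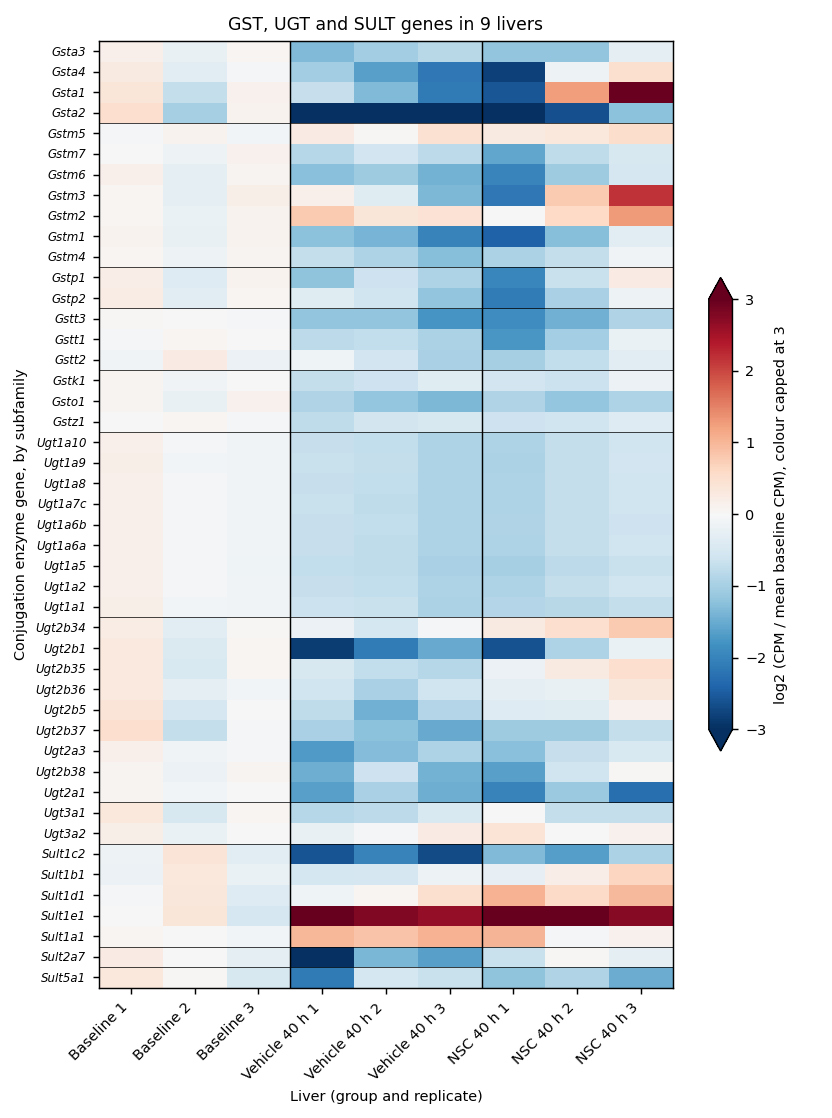
Level of each of the 46 tested genes (rows, by subfamily) in each of the 9 livers (columns), as the log2 ratio of its CPM to the mean baseline CPM. Blue marks lower and red higher levels, with the colour capped at 3. The 40 h columns are mainly blue, *Sult1e1* is red in all 6 of them, and NSC replicate 1 is bluer than NSC replicate 3 in most GST rows.

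Of the 30 genes called with vehicle, 15 were called under every one of 17 alternative settings, and 14 of the 25 called with NSC were. These numbers include the 9 *Ugt1a* genes in both cases. The other genes kept in every setting were *Gstm4*, *Gsto1*, *Gstt3*, *Sult1c2*, *Ugt2a3* and *Ugt2b37* with vehicle and *Gstm7*, *Gsto1*, *Gstt3*, *Sult1c2* and *Sult1d1* with NSC. With an added threshold of 1.5 on the absolute log2 fold change, 6 genes were called with vehicle and 2 with NSC (7.22% and 8.13% of all genes).

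**Figure D2:**
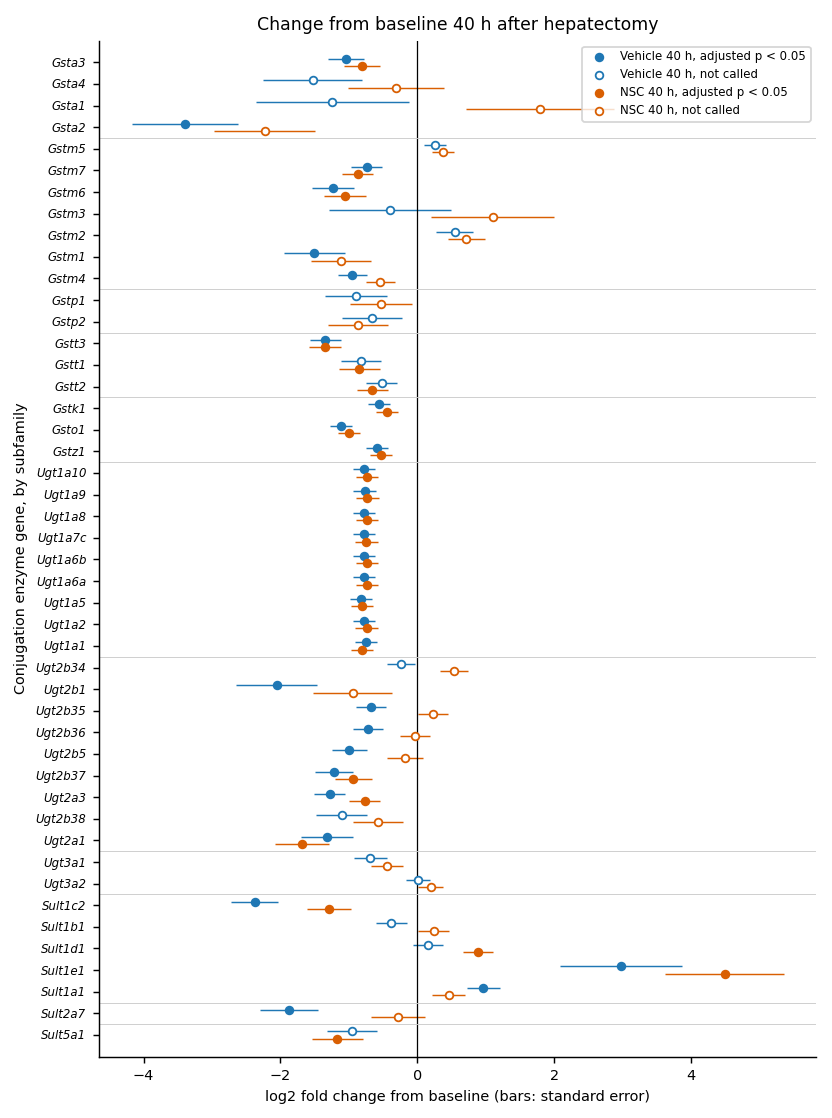
Log2 fold change from baseline of each of the 46 tested genes with vehicle (blue) and NSC (orange), with bars for the standard error. Filled points passed an adjusted p of 0.05 and open points did not. Most points lie left of 0, and *Sult1e1* lies farthest to the right in both treatments.

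Of the 3 families, the GST genes had the largest summed level. Their summed FPKM was 5071 ± 669 (SD, n = 3) at baseline, 2585 ± 162 with vehicle and 3552 ± 1997 with NSC, which corresponds to 0.510 and 0.700 of baseline (0.869 with NSC without replicate 1). The 3 vehicle livers, at 2708, 2646 and 2402, all lay below the 3 baseline livers, at 5529, 4303 and 5381. The NSC livers spread from below every vehicle liver to above every baseline liver, at 1837, 3073 and 5745. With all libraries, 10 of 19 GST genes tested fell with vehicle and 9 with NSC, and none rose. By class, 2 of 4 alpha, 4 of 7 mu, 0 of 2 pi, 1 of 3 theta and 3 of 3 other GST genes fell with vehicle, and 1, 2, 0, 3 and 3 fell with NSC. Without NSC replicate 1, *Gsta1* (2.35, adjusted p = 0.0218) and *Gstm2* (0.98, adjusted p = 0.00302) were called higher with NSC than at baseline.

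**Figure D3:**
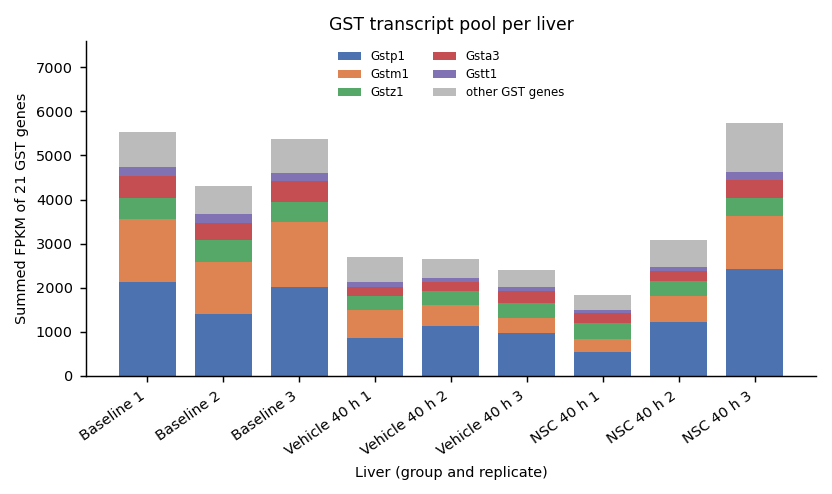
Summed FPKM of the 21 GST genes in each liver, with the leading 5 genes in colour and the rest in grey. The vehicle livers stand near 0.510 of the mean baseline height, and the NSC livers range from 1837 to 5745.

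*Gstp1* (ENSMUSG00000060803, chromosome 19, 4035407 to 4037921), the GST pi gene whose enzyme conjugates many electrophiles, was the most abundant of the 59 genes at baseline, with 1850.5 ± 383 FPKM (SD, n = 3). The microsomal transferase *Mgst1*, which the name rule did not take, stood at 1826 ± 112 FPKM. The CPM of *Gstp1* was 1676, 1109 and 1573 at baseline, 626, 948 and 764 with vehicle and 375, 908 and 1734 with NSC. All vehicle livers lay below all baseline livers, but the NSC livers ran from the lowest to the highest of the 9, and neither change was called (-0.90, SE 0.46, adjusted p = 0.187 with vehicle and -0.53, SE 0.45, adjusted p = 0.397 with NSC on the log2 scale). Its neighbour *Gstp2*, a near copy, had 84.8 ± 15.9 FPKM and log2 fold changes of -0.67 (SE 0.44, adjusted p = 0.307) and -0.87 (SE 0.44, adjusted p = 0.162). Reads from such close copies can be split or lost in counting, so the values of single GST pi, alpha and mu genes carry this uncertainty.

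*Gstm1*, the leading GST mu gene (ENSMUSG00000058135, chromosome 3, 108012255 to 108017973), stood at 1358 ± 168 FPKM at baseline. Its CPM was 2095, 1683 and 2107 at baseline and 839, 748 and 488 with vehicle, a fall of every vehicle liver below every baseline liver (-1.504, SE 0.44, adjusted p = 0.0361). With NSC it was 363, 815 and 1547 CPM, which was also below all baseline livers but was not called (-1.11, SE 0.44, adjusted p = 0.0771). For *Gstm1*, the vehicle call was lost when baseline replicate 1, 2 or 3, or vehicle replicate 1, 2 or 3, or NSC replicate 2 was left out, with an adjusted p of up to 0.114. *Gstm2* lay above all baseline livers with vehicle, at 135, 102 and 107 CPM against 82.1, 68.4 and 85.2 CPM, but its log2 fold changes of 0.54 (SE 0.27, adjusted p = 0.172) and 0.72 (SE 0.27, adjusted p = 0.0620) were not called. Without NSC replicate 1, where it stood at the baseline level, the change of *Gstm2* with NSC was 0.98 (adjusted p = 0.00302). *Gstm3* lay at 113, 90.2 and 122 CPM at baseline, 119.6, 83.7 and 42.4 CPM with vehicle and 24.7, 187 and 484 CPM with NSC. The highest NSC liver of *Gstm3* was 19.6 times the lowest, and its log2 fold changes were -0.40 (SE 0.89, adjusted p = 0.785) and 1.10 (SE 0.90, adjusted p = 0.383). Of the 7 GST mu genes tested, 4 fell with vehicle (*Gstm1*, *Gstm4*, *Gstm6* and *Gstm7*) and 2 with NSC (*Gstm6* and *Gstm7*).

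The GST alpha genes encode enzymes that also reduce lipid hydroperoxides. *Gsta3* (ENSMUSG00000025934, chromosome 1, 21240589 to 21265661) led them with 446 ± 58.4 FPKM and fell in both treatments. Its CPM was 2222, 1711 and 2087 at baseline, 802, 981 and 1135 with vehicle (-1.05, SE 0.26, adjusted p = 0.0124) and 884, 884 and 1663 with NSC (-0.81, SE 0.26, adjusted p = 0.0288), with no overlap with baseline in either. For *Gsta3*, the vehicle call was lost without vehicle replicate 1 (adjusted p = 0.0525). For *Gsta3*, the NSC call was lost when baseline replicate 1 or 3, or NSC replicate 1 or 2 was left out, with an adjusted p of up to 0.116. It was also not called with NSC with library size as the only scaling (adjusted p = 0.0512). *Gsta2* fell furthest of all 46 genes with vehicle, from 67.1, 23.6 and 50.4 CPM to 5.78, 3.03 and 4.54 CPM (-3.40, SE 0.77, adjusted p = 0.0185). For *Gsta2*, the vehicle call was lost when baseline replicate 1 or 3, or vehicle replicate 1, 2 or 3 was left out, with an adjusted p of up to 0.0610. With NSC it was 2.49, 7.61 and 20.2 CPM, again below every baseline liver (-2.23, SE 0.73, adjusted p = 0.0509, not called). *Gsta4*, which acts on hydroxynonenal from lipid peroxidation, was 32.4, 21.6 and 15.2 CPM with vehicle, below its baseline of 81.1, 53.7 and 65.6 CPM, and 9.51, 59.8 and 92.5 CPM with NSC, and passed the test in neither (-1.53, SE 0.72, adjusted p = 0.171 and -0.31, SE 0.70, adjusted p = 0.765). *Gsta1* was scarce, at 6.002, 2.84 and 5.05 CPM at baseline and 2.88, 1.84 and 1.07 CPM with vehicle, and its NSC livers of 0.780, 11.002 and 36.2 CPM differed 46.5-fold. Its log2 fold changes were -1.24 (SE 1.11, adjusted p = 0.467) and 1.78 (SE 1.08, adjusted p = 0.242).

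Binding of NRF2 to an antioxidant response element (ARE) upstream of GST alpha genes is textbook biology, so the promoter windows of RefSeq (GRCm38.p6, 250 bases before to 50 bases after the start, 51 of the 59 genes matched) were searched on both strands for the ARE core letters TGACNNNGC. The core was in 3 windows, those of *Gsta3*, *Gstm5* and *Gstm7*, or 5.88% of the members with a window, against 12.4% of all 32851 windows. The 150 bases before the *Gsta3* start are shown because this gene was the most abundant of the 3, with the core in capitals.
Gsta3, chr1:21240435-21240584, plus strand: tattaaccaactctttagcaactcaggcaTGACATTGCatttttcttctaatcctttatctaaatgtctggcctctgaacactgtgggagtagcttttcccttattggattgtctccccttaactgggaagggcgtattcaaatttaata
*Gsta4*, *Gstt2*, *Sult2a1*, *Sult2a2*, *Sult2a7*, *Sult4a1*, *Ugt1a6b* and *Ugt3a2* had no window. A match of letters is a description of the sequence and not a binding site. Sequence more than 250 bases before a start was not searched, so the count cannot say whether a gene lacks an ARE. The windows were also searched for other motifs, of which AGGTCA is described below with the *Ugt2b* genes. The HNF1 half-site letters GTTAAT were in 13 of the 51 members (25.5%, against 7.1% of all windows). The XRE core letters GCGTG were in 10 (19.6%, against 32.4% of all windows).

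Among the remaining classes, *Gstt1* (GST theta, which acts on small halogenated molecules) led its class at 196 ± 6.62 FPKM. It was 303, 322 and 306 CPM at baseline, 179, 186 and 161 CPM with vehicle and 92.8, 154 and 269.8 CPM with NSC, with all 40 h livers below all baseline livers. The call was made with NSC (-0.85, SE 0.30, adjusted p = 0.0461) and not with vehicle (-0.82, SE 0.30, adjusted p = 0.0670), but the NSC call was lost in 11 of 17 alternatives and the vehicle change was called in 5. For *Gstt1*, the NSC call was lost when baseline replicate 1, 2 or 3, or vehicle replicate 1, 2 or 3, or NSC replicate 1 or 2 was left out, with an adjusted p of up to 0.135. *Gstt3* fell by like amounts in both, from 108, 104 and 103 CPM to 46.3, 46.4 and 30.9 CPM (-1.35, SE 0.23, adjusted p = 0.00198) and 28.8, 38.6 and 56.3 CPM (-1.35, SE 0.23, adjusted p = 0.00131). *Gsto1* (ENSMUSG00000025068, chromosome 19, 47854970 to 47864790), an omega-class enzyme that reduces dehydroascorbate, had the smallest adjusted p of the 46 genes in both comparisons. It went from 85.7, 69.3 and 88.6 CPM to 43.6, 36.5 and 31.9 CPM with vehicle (-1.12, SE 0.16, adjusted p = 6.40e-04) and 43.3, 36.2 and 42.7 CPM with NSC (-0.996, SE 0.16, adjusted p = 8.03e-04). Its NSC livers differed 1.20-fold, against 4.62-fold for *Gstp1* and 4.26-fold for *Gstm1*. *Gstz1*, which isomerises maleylacetoacetate in tyrosine breakdown and had 484 ± 18.5 FPKM, fell modestly (-0.59, SE 0.16, adjusted p = 0.0185 and -0.53, SE 0.16, adjusted p = 0.0224). The mitochondrial and peroxisomal enzyme gene *Gstk1* did likewise (-0.56, SE 0.16, adjusted p = 0.0252 and -0.45, SE 0.16, adjusted p = 0.0468). Their vehicle calls were each lost in 4 of 17 alternatives, and their NSC calls in 5 for *Gstz1* and 10 for *Gstk1*. For *Gstz1*, the vehicle call was lost when baseline replicate 1, 2 or 3, or vehicle replicate 1 was left out, with an adjusted p of up to 0.0805. For *Gstz1*, the NSC call was lost when baseline replicate 1, 2 or 3, or NSC replicate 2 was left out, with an adjusted p of up to 0.0819. For *Gstk1*, the vehicle call was lost when baseline replicate 1 or 3, or vehicle replicate 1 or 2 was left out, with an adjusted p of up to 0.107. For *Gstk1*, the NSC call was lost when baseline replicate 1, 2 or 3, or vehicle replicate 1 or 2, or NSC replicate 1 or 2 was left out, with an adjusted p of up to 0.167.

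The UGT1 family of the mouse is 1 locus on chromosome 1, at which several first exons are each joined to a common set of exons. In the GENCODE M21 annotation, 9 deposited *Ugt1a* genes share 1311 bases in 4 blocks (chromosome 1, 88215044 to 88218997), and their exonic lengths equal the deposited gene lengths. Their counts were nearly equal in every library, the lowest of the 9 being 73.9% to 84.6% of the highest, and the 9 calls are therefore close to a single measurement. *Ugt1a1* (ENSMUSG00000089960, chromosome 1, 88211959 to 88218997), which glucuronidates bilirubin, was the highest of them. It was 965, 812 and 805 CPM at baseline, 549, 539 and 447 CPM with vehicle (-0.75, SE 0.16, adjusted p = 0.00621) and 470.4, 486 and 520.3 CPM with NSC (-0.81, SE 0.16, adjusted p = 0.00291). All 6 livers at 40 h lay below the 3 baseline livers, and its NSC livers differed 1.11-fold. *Ugt1a6a* and *Ugt1a9*, which act on phenols, had log2 fold changes of -0.78 and -0.77 with vehicle and -0.74 and -0.73 with NSC.

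To separate the first exons, the lowest *Ugt1a* count of each library was subtracted from each gene, a step chosen after seeing the data. The remaining counts of *Ugt1a1* were 7108, 5711 and 5690 at baseline, 5382, 5428 and 2596 with vehicle and 4067, 2365 and 2041 with NSC, the largest of the 9 genes in every library. Fitted with all other genes, this excess fell by 0.66 (SE 0.21, adjusted p = 0.0384) with vehicle and by 1.05 (SE 0.21, adjusted p = 0.00274) with NSC on the log2 scale. The excess of *Ugt1a5* fell more, from 1584, 1865 and 1060 counts to 397, 963 and 309 (-1.61, SE 0.37, adjusted p = 0.0124) and 217, 337 and 210 (-2.44, SE 0.38, adjusted p = 0.00148). The shared part, taken as the lowest count, changed by -0.78 (SE 0.16, adjusted p = 0.00554) and -0.74 (SE 0.16, adjusted p = 0.00486). The excess of *Ugt1a9* was not called (-0.66, SE 0.26, adjusted p = 0.0922 and -0.62, SE 0.26, adjusted p = 0.0911). The excesses of *Ugt1a6a*, *Ugt1a6b* and *Ugt1a7c* were of like size in each library and fell in both treatments (adjusted p from 0.00115 to 0.00258). Their log2 fold changes lay between -0.84 and -0.76 with vehicle and between -0.80 and -0.69 with NSC. Outside the common exons, *Ugt1a7c* shares a further 859 bases with *Ugt1a6a* and 133 with *Ugt1a6b*, and the latter 2 genes share 0 with each other. *Ugt1a8*, *Ugt1a10* and *Ugt1a2* had at most 32 counts left in any library.

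All 9 UGT2 genes and 3 SULT1 genes lay within 0.702 Mb of chromosome 5 (86889767 to 87591611 in the deposited coordinates). UGT2B enzymes glucuronidate steroids, bile acids and drugs. The summed FPKM of the UGT2 genes was 1173 ± 271 at baseline, 613 ± 125 with vehicle and 1135 ± 287 with NSC (SD, n = 3 each), or 0.522 and 0.968 of baseline (1.06 with NSC without replicate 1). With vehicle, 7 of the 9 fell, and with NSC 3 did, namely *Ugt2a1*, *Ugt2a3* and *Ugt2b37*. *Ugt2b5* (ENSMUSG00000054630, chromosome 5, 87124960 to 87140318), the most abundant at 416 ± 126 FPKM, went from 1052, 563 and 789.9 CPM at baseline to 477, 295 and 435 CPM with vehicle (-0.99, SE 0.26, adjusted p = 0.0160) and stood at 612, 627 and 879 CPM with NSC (-0.18, SE 0.26, adjusted p = 0.609). The vehicle livers lay below both other groups, which overlapped each other. *Ugt2b36* had the same order, with 727, 495 and 560.0 CPM at baseline, 389.5, 304 and 390.4 CPM with vehicle (-0.72, SE 0.22, adjusted p = 0.0312) and 481, 509 and 746 CPM with NSC (-0.04, SE 0.22, adjusted p = 0.909). *Ugt2b35* was 149.96, 88.2 and 126 CPM, 87.7, 73.3 and 67.4 CPM (-0.67, SE 0.22, adjusted p = 0.0435) and 108, 147 and 173 CPM (0.23, SE 0.22, adjusted p = 0.441) in the same groups. For *Ugt2b35*, the vehicle call was lost when baseline replicate 1 or 3, or vehicle replicate 1, 2 or 3, or NSC replicate 2 was left out, with an adjusted p of up to 0.177. For *Ugt2b36*, the vehicle call was lost when baseline replicate 1 or 3, or vehicle replicate 1, 2 or 3 was left out, with an adjusted p of up to 0.137. For *Ugt2b5*, the vehicle call was lost when baseline replicate 1 or vehicle replicate 2 was left out, with an adjusted p of up to 0.0789.

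*Ugt2b1* fell with vehicle from 573, 347 and 483 CPM to 64.7, 109 and 165 CPM (-2.05, SE 0.59, adjusted p = 0.0407), the largest fall of the UGT genes. For *Ugt2b1*, the vehicle call was lost when baseline replicate 1, 2 or 3, or vehicle replicate 1 or 2, or NSC replicate 2 was left out, with an adjusted p of up to 0.121. With NSC its livers were 77.1, 246 and 405 CPM, of which only replicate 1 lay among the vehicle values (-0.95, SE 0.58, adjusted p = 0.240). *Ugt2a3* fell in both treatments, from 306, 253 and 261 CPM to 83.5, 111 and 143 CPM (-1.28, SE 0.23, adjusted p = 0.00244) and 114, 168 and 198 CPM (-0.77, SE 0.23, adjusted p = 0.0218). For *Ugt2a3*, the NSC call was lost when baseline replicate 1 or NSC replicate 1 or 2 was left out, with an adjusted p of up to 0.0743. *Ugt2b38* was low, at 10.5, 8.67 and 10.5 CPM at baseline, and its difference with vehicle was not called (-1.11, SE 0.37, adjusted p = 0.0501) but passed the threshold in 10 of 17 alternatives, DESeq2 and edgeR's exact test among them. *Ugt2b34* (ENSMUSG00000029260, chromosome 5, 86889767 to 86906937) had another order. Its CPM was 524, 361 and 455 at baseline, 395, 311 and 429 with vehicle (-0.24, SE 0.20, adjusted p = 0.424) and 534, 632 and 772 with NSC (0.53, SE 0.20, adjusted p = 0.0597), so that the 3 NSC livers lay above all 6 others, although neither difference from baseline was called with all libraries. Without NSC replicate 1, the NSC difference of *Ugt2b34* from baseline was called (0.65, adjusted p = 0.0260). The UGT3 genes on chromosome 15, *Ugt3a1* and *Ugt3a2*, use other sugars and were not called in any comparison by edgeR's quasi-likelihood test with all libraries. The vehicle difference of *Ugt3a1* (-0.69, SE 0.24, adjusted p = 0.0563) passed the threshold in 6 of 17 alternatives, DESeq2 and edgeR's exact test among them. *Ugt3a2* was the more abundant at 90.8 ± 11.5 FPKM, with 332, 256 and 288 CPM at baseline, 252, 283 and 347 CPM with vehicle and 385, 296 and 319 CPM with NSC.

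The *Ugt2b* genes differed in the sequence before their starts. The hexamer AGGTCA, a DNA motif of nuclear receptors, was found in 5 of 7 *Ugt2b* windows, in 11 of the 51 members with a window (21.6%) and in 16.3% of all windows. Of the 51 members, 9 had more than 1 window in the table, which gives them more chances of a match. In *Ugt2b5*, *Ugt2b36*, *Ugt2b37* and *Ugt2b38* it lay within 39 bases of the start, inside a run of 22 letters that is the same in these 4 genes and in no other gene of the promoter table, gataaaAGGTCAagcagtgaca. In *Ugt2b35* it lay farther upstream (first base 215 before the start), and *Ugt2b1* and *Ugt2b34* had none in the window. The 60 bases before each start are shown so that the shared stretch can be seen, with the hexamer in capitals.
Ugt2b5, chr5:87140341-87140400, minus strand: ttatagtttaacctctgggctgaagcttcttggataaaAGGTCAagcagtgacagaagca
Ugt2b36, chr5:87092556-87092615, minus strand: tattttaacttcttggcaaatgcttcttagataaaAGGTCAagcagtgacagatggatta
Ugt2b37, chr5:87254789-87254848, minus strand: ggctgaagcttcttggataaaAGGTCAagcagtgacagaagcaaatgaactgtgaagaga
Ugt2b38, chr5:87424204-87424263, minus strand: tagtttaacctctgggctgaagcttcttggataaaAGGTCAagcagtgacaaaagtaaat
Ugt2b35, chr5:87000800-87000859, plus strand: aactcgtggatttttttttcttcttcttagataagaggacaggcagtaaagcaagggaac
Ugt2b34, chr5:86906938-86906997, minus strand: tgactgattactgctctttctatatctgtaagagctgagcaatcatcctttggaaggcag
Ugt2b1, chr5:86926504-86926563, minus strand: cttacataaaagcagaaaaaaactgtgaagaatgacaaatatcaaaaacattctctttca
With vehicle, the log2 fold changes of the 4 genes with the run lay between -1.22 (*Ugt2b37*) and -0.72 (*Ugt2b36*). With NSC they lay between -0.93 (*Ugt2b37*) and -0.04 (*Ugt2b36*). Differences between the genes were not tested.

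The SULT genes moved in both directions. *Sult1a1* (ENSMUSG00000030711, chromosome 7, 126672865 to 126676432), which sulfonates phenols and made up 84.8% of the FPKM of the 18 SULT genes at baseline (238 ± 9.80 FPKM), rose with vehicle from 388, 375 and 354 CPM to 738, 671 and 769.9 CPM (0.96, SE 0.24, adjusted p = 0.0137). That share leaves out *Sult2a8* (described below), which held 37.7% of the baseline SULT FPKM once added. For *Sult1a1*, the vehicle call was lost without baseline replicate 3 (adjusted p = 0.0557). With NSC it was 757, 366 and 410.1 CPM (0.46, SE 0.24, adjusted p = 0.161), so that replicate 1 lay with the vehicle livers and replicates 2 and 3 with baseline. *Sult1e1* (ENSMUSG00000029272, chromosome 5, 87575968 to 87591611), the estrogen sulfotransferase, rose in both treatments from a level near the detection limit. It had 3, 4 and 2 counts at baseline, 42, 25 and 16 counts with vehicle and 167, 27 and 16 counts with NSC, and no baseline liver overlapped a 40 h liver. The log2 fold changes were 2.97 (SE 0.89, adjusted p = 0.0338) and 4.48 (SE 0.87, adjusted p = 0.00290). For *Sult1e1*, the vehicle call was lost when baseline replicate 1, 2 or 3, or vehicle replicate 1, 2 or 3 was left out, with an adjusted p of up to 0.112. From the summed counts, the ratio to baseline was 8.27 (exact 95% interval 4.15 to 18.7, counting error only) with vehicle and 25.02 (exact 95% interval 12.9 to 55.5) with NSC, and 8.23 (exact 95% interval 3.96 to 19.2) for NSC without replicate 1. The estrogen receptor gene *Esr1* also rose in both treatments (0.72, SE 0.18, adjusted p = 0.0129 and 0.65, SE 0.18, adjusted p = 0.0146).

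*Sult1d1*, which sulfonates catecholamines and other phenols, was called with NSC only, where it rose from 71.7, 92.5 and 55.6 CPM at baseline to 150.3, 110.0 and 145 CPM (0.88, SE 0.22, adjusted p = 0.00834), while the vehicle livers at 66.9, 75.8 and 102 CPM overlapped baseline (0.15, SE 0.22, adjusted p = 0.647). *Sult1b1*, a thyroid hormone and phenol sulfotransferase, was called in neither (-0.38, SE 0.23, adjusted p = 0.240 and 0.24, SE 0.23, adjusted p = 0.439). *Sult1c2* fell in both, from 3.00, 4.37 and 2.61 CPM to 0.551, 0.829 and 0.517 CPM (-2.38, SE 0.34, adjusted p = 6.51e-04) and 1.32, 1.05 and 1.72 CPM (-1.29, SE 0.32, adjusted p = 0.00905). *Sult2a7*, the only gene of the hydroxysteroid SULT2 class among the 59 genes to pass the filter, was 2.46, 2.05 and 1.68 CPM at baseline, 0.225, 0.803 and 0.664 CPM with vehicle (-1.88, SE 0.42, adjusted p = 0.00780) and 1.29, 2.11 and 1.68 CPM with NSC (-0.29, SE 0.39, adjusted p = 0.598). *Sult5a1* lay below baseline in all 6 livers at 40 h and was called with NSC (-0.96, SE 0.37, adjusted p = 0.0820 and -1.17, SE 0.38, adjusted p = 0.0308). For *Sult5a1*, the NSC call was lost when baseline replicate 1 or 2, or NSC replicate 1 or 3 was left out, with an adjusted p of up to 0.103. The summed SULT FPKM was 281 ± 17.3 at baseline, 511 ± 65.0 with vehicle and 438 ± 175 with NSC, which mostly follows *Sult1a1*, and the NSC mean was 1.55 times baseline with and 1.20 times without replicate 1. This sum lacks the gene listed as *2810007J24Rik*, which RefSeq names *Sult2a8* and which the name rule did not take. That gene fell from 542, 390.3 and 361 CPM to 31.6, 73.9 and 113 CPM with vehicle (-2.56, SE 0.41, adjusted p = 0.00256) and 106, 124 and 158 CPM with NSC (-1.74, SE 0.40, adjusted p = 0.00917). With it, the SULT sum was 454 ± 49.3, 540.1 ± 67.2 and 494 ± 169 FPKM, and *Sult2a8* held 37.7%, 5.36% and 12.5% of it.

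In the direct comparison at 40 h, edgeR's quasi-likelihood test called 0 of the 46 genes, against 0.0399% of all genes tested (6 genes, all lower with NSC). At an unadjusted p under 0.05 there were 11 genes, all higher with NSC, where 9.3% of all genes were higher and 10.2% lower at that level. In 7 genes the 3 NSC livers lay above the 3 vehicle livers and in 0 below them (10.3% and 12.2% of all genes). With other tools the count was 4 in edgeR's exact test and 6 in DESeq2, all of them higher with NSC, where 3.07% and 5.03% of all genes were called. Without NSC replicate 1 it was 8 (6.46% of all genes), of which 7 were higher (*Gsta1*, *Gsta4*, *Sult1b1*, *Sult2a7*, *Ugt2b34*, *Ugt2b35* and *Ugt2b36*) and *Sult1a1* was lower (-0.91, adjusted p = 0.00929). With all libraries the log2 difference of *Sult1a1* was -0.51 (SE 0.24, adjusted p = 0.271).

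The genes with the smallest p in this comparison came largely from the chromosome 5 block. *Ugt2b35* differed by 0.90 (SE 0.22, adjusted p = 0.0907), *Ugt2b34* by 0.77 (SE 0.20, adjusted p = 0.0994) and *Ugt2b5* by 0.81 (SE 0.26, adjusted p = 0.137) on the log2 scale. *Ugt2b36* differed by 0.68 (SE 0.22, adjusted p = 0.137) and *Sult1d1* by 0.73 (SE 0.22, adjusted p = 0.123). In each of these 5 genes the NSC livers did not overlap the vehicle livers. Of the 12 members in the block, 11 had a difference above 0, against 26 of the 34 members elsewhere and 7733 of all 15024 genes. At an unadjusted p under 0.05 in edgeR's quasi-likelihood test, 8 of the 12 were higher. Elsewhere 3 of the 34 were (*Gsta1*, *Sult1c2* and *Sult2a7*), and 9.3% of all genes. The block was described from these same values, and its contrast with the other members was not tested. Without NSC replicate 1, 9 of 12 in the block and 10 of 34 elsewhere were higher at that level, and 0 and 1 were lower. Of all genes, 3785 of 15390 then had an unadjusted p under 0.05 in either direction, against 2929 of 15024 with all libraries. The log2 difference of *Sult1e1* was 0.0068 without NSC replicate 1. With all libraries, *Ugt2b1* was at 1.11 (SE 0.58, adjusted p = 0.329), and *Ugt2a1* was the gene of the block with a negative difference (-0.37, SE 0.41, adjusted p = 0.639). Of the 6 other tested genes within 1 Mb of the block, *Cenpc1* and *Utp3* had an unadjusted p under 0.05. Outside the block, *Sult2a7* differed by 1.59 (SE 0.43, adjusted p = 0.101) and *Sult1c2* by 1.09 (SE 0.34, adjusted p = 0.136), both from levels under 3 CPM in every 40 h liver.

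**Figure D4:**
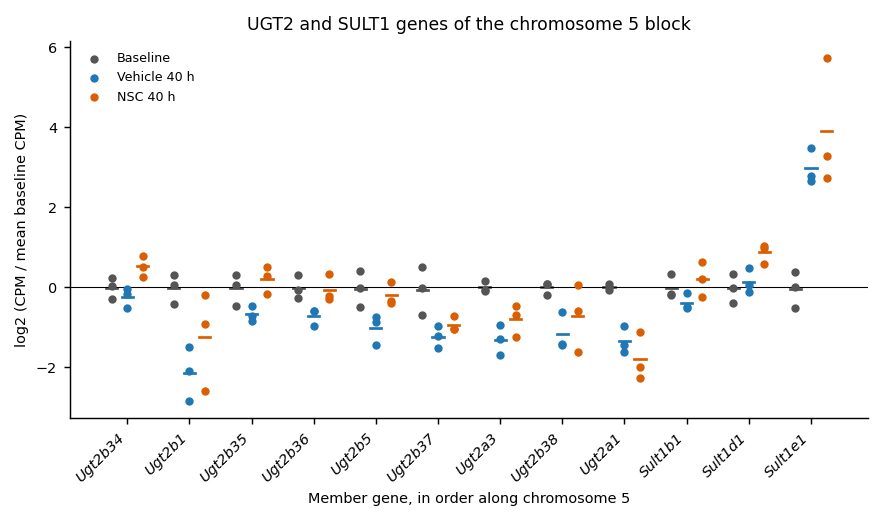
Level of the 12 members of the chromosome 5 block in each liver, in their order along the chromosome, as the log2 ratio of CPM to the mean baseline CPM. Points are livers and short lines group means. For *Ugt2b34*, *Ugt2b35*, *Ugt2b36*, *Ugt2b5* and *Sult1d1* all orange NSC points lie above all blue vehicle points.

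The NSC livers differed among themselves more than the other groups for GST genes. The median ratio of the highest to the lowest NSC liver was 2.47 over the 19 GST genes, 1.29 over the 20 UGT genes and 1.64 over the 7 SULT genes, against 1.48 over all genes tested. The UGT median leans on the 9 *Ugt1a* genes, close to a single measurement, whose ratios lay between 1.11 and 1.29. Those of the other UGT genes ran from 1.27 (*Ugt2b37*) to 5.26 (*Ugt2b1*). For the GST genes the median ratio was 1.28 among the baseline and 1.47 among the vehicle livers. NSC replicate 1 was the lowest of the 3 in 35 of the 46 genes (76.1%, all genes 41.0%), and NSC replicate 3 was the highest in 37 (80.4%, all genes 34.0%). Both counts include all 9 *Ugt1a* genes. Replicate 1 was the highest in 6 genes (*Gsto1*, *Sult1a1*, *Sult1d1*, *Sult1e1*, *Ugt3a1* and *Ugt3a2*). The direct log2 differences of the GST genes had wide errors, at 3.03 (SE 1.15, adjusted p = 0.218) for *Gsta1*, 1.5005 (SE 0.90, adjusted p = 0.397) for *Gstm3* and 1.22 (SE 0.72, adjusted p = 0.383) for *Gsta4*. Those of *Gsta2*, *Gstm1* and *Gstp1* were 1.17 (SE 0.74, adjusted p = 0.414), 0.39 (SE 0.43, adjusted p = 0.643) and 0.37 (SE 0.45, adjusted p = 0.682). Without NSC replicate 1 the values were 3.58 (adjusted p = 0.0241) for *Gsta1*, 2.03 (adjusted p = 0.0721) for *Gstm3* and 1.72 (adjusted p = 0.0187) for *Gsta4*.

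**Figure D5:**
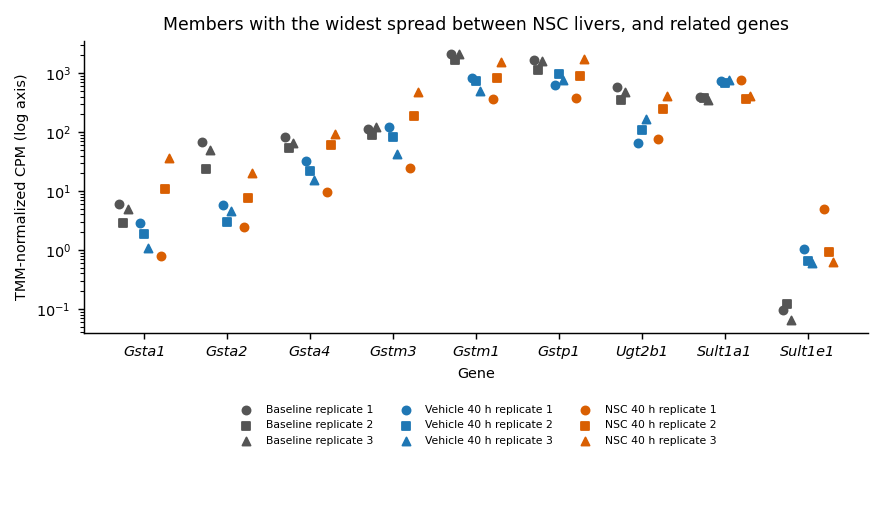
CPM on a log axis of 9 genes in each liver, with colours for groups and shapes for replicate numbers. NSC replicate 1 (orange circle) is the lowest NSC liver for the GST genes shown and *Ugt2b1*, and the highest for *Sult1a1* and *Sult1e1*.

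Genes that supply or clear the conjugation reactions were followed in lists drawn up by their roles. Glutathione is made by the subunits of glutamate-cysteine ligase, *Gclc* and *Gclm*, and by *Gss*. Of 11 genes of glutathione synthesis and turnover tested, 2 rose and 1 fell with vehicle, and 3 rose and 3 fell with NSC (median log2 fold change -0.46 and -0.21). The shares of all genes called, 23.7% with vehicle and 34.7% with NSC, apply to this list and to those that follow. *Gclc* (-0.68, SE 0.32, adjusted p = 0.151 and -0.21, SE 0.32, adjusted p = 0.647) and *Gclm* (-0.51, SE 0.18, adjusted p = 0.0524 and 0.14, SE 0.18, adjusted p = 0.577) were not called. Glutathione synthetase *Gss* rose in both (0.99, SE 0.20, adjusted p = 0.00429 and 1.09, SE 0.20, adjusted p = 0.00176), as did *Ggct*, which breaks down gamma-glutamyl peptides (0.97, SE 0.21, adjusted p = 0.00631 and 1.11, SE 0.21, adjusted p = 0.00214). *Chac1*, which degrades glutathione, fell in both (-1.48, SE 0.38, adjusted p = 0.0160 and -1.13, SE 0.38, adjusted p = 0.0373), and glutathione reductase *Gsr* rose with NSC (0.48, SE 0.17, adjusted p = 0.0494). Of 5 genes of UDP-glucuronate supply, 1 rose and 1 fell with vehicle and 0 were called with NSC (medians -0.23 and 0.03). The microsomal transferase *Mgst1* fell with vehicle (-0.78, SE 0.22, adjusted p = 0.0218), as did *Ugdh*, which makes UDP-glucuronate (-0.72, SE 0.20, adjusted p = 0.0224). Of 8 genes for PAPS, the sulfonate donor, 1 fell with vehicle and 1 rose and 1 fell with NSC (medians -0.11 and -0.10). The sulfate carrier *Slc26a1* fell in both (-0.57, SE 0.16, adjusted p = 0.0234 and -0.93, SE 0.16, adjusted p = 0.00126) and *Impad1* rose with NSC (1.01, SE 0.16, adjusted p = 6.65e-04).

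Among 5 exporters of conjugates, 3 fell in both treatments (medians -0.83 and -0.80). They were the bile canalicular pump *Abcc2* (-0.83, SE 0.19, adjusted p = 0.00861 and -0.80, SE 0.19, adjusted p = 0.00691) and the basolateral pumps *Abcc3* (-1.14, SE 0.21, adjusted p = 0.00296 and -1.48, SE 0.22, adjusted p = 4.81e-04) and *Abcc4* (-1.39, SE 0.26, adjusted p = 0.00292 and -1.47, SE 0.26, adjusted p = 0.00152), while *Abcg2* rose with NSC (0.58, SE 0.18, adjusted p = 0.0272). Of 10 other conjugating or hydrolysing enzymes, 1 rose and 3 fell with vehicle and 3 rose and 2 fell with NSC (medians -0.15 and 0.22). *Nat2* and *Tpmt*, which acetylate and methylate drugs, rose with NSC (0.76, SE 0.20, adjusted p = 0.0107 and 0.80, SE 0.21, adjusted p = 0.0113), and the epoxide hydrolase *Ephx2* fell in both (-1.41, SE 0.17, adjusted p = 2.39e-04 and -0.93, SE 0.17, adjusted p = 0.00158). Of 3 deconjugation genes tested, the sulfatase *Arsa* fell in both (-1.74, SE 0.15, adjusted p = 2.93e-05 and -1.74, SE 0.15, adjusted p = 2.08e-05). In the list of 12 regulators, 1 rose and 5 fell with vehicle, and 2 rose and 5 fell with NSC (medians -0.24 and -0.51). PXR (*Nr1i2*) fell (-0.87, SE 0.19, adjusted p = 0.00614 and -0.95, SE 0.19, adjusted p = 0.00252), as did CAR (*Nr1i3*, -0.98, SE 0.29, adjusted p = 0.0329 and -1.22, SE 0.29, adjusted p = 0.00871) and FXR (*Nr1h4*, -1.06, SE 0.15, adjusted p = 5.22e-04 and -0.69, SE 0.15, adjusted p = 0.00362). The NRF2 gene *Nfe2l2* rose with NSC (0.67, SE 0.16, adjusted p = 0.00746). Of 8 genes known as male-biased in mouse liver, 4 fell with vehicle and 3 with NSC, and of 7 female-biased genes tested 0 and 1 fell (medians -1.44 and -1.11 for the male-biased and -0.08 and -0.36 for the female-biased genes). No gene of these lists was called in the direct comparison, but 13 were without NSC replicate 1, where 6.46% of all genes were called.

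In whole liver, fewer cells of a type and less RNA per cell cannot be told apart. Of 8 hepatocyte markers, 1 rose and 3 fell with vehicle and 1 rose and 4 fell with NSC, and their summed level was 126853 to 132123 CPM at baseline, 102928 to 146291 CPM with vehicle and 107304 to 121822 CPM with NSC. Their median log2 fold change was -0.67 with vehicle and -0.73 with NSC. The sum rests mostly on *Alb* (mean 92303 CPM at baseline), which was not called (-0.02, SE 0.20, adjusted p = 0.951 and -0.10, SE 0.20, adjusted p = 0.738). Proliferation markers rose in 5 of 5 genes in both treatments, with sums of 23.8 to 24.6 CPM at baseline, 262 to 326 CPM with vehicle and 204 to 627 CPM with NSC. Cholangiocyte markers (4 and 3 of 5 tested rose) summed to 37.8 to 40.7 CPM at baseline, 76.0 to 115 CPM with vehicle and 79.1 to 122 CPM with NSC, and stellate and fibroblast markers (4 and 1 of 6 rose) to 141 to 173 CPM at baseline, 259 to 324 CPM with vehicle and 179.6 to 326 CPM with NSC. Macrophage markers (2 and 3 of 5 rose) summed to 99.4 to 148 CPM at baseline, 84.7 to 163 CPM with vehicle and 165 to 274 CPM with NSC. Neutrophil markers (1 and 3 of 3 tested rose) summed to 1.80 to 6.48 CPM at baseline, 7.60 to 15.0 CPM with vehicle and 10.6 to 16.7 CPM with NSC, with *Mpo* at 3 counts or fewer in every library. Sinusoidal endothelial markers (1 of 5 fell with vehicle) summed to 157 to 165 CPM at baseline, 98.4 to 160.1 CPM with vehicle and 112 to 199.8 CPM with NSC, T and B cell markers (1 of 4 tested fell in both treatments) to 2.20 to 8.25 CPM at baseline, 1.14 to 2.12 CPM with vehicle and 1.97 to 2.78 CPM with NSC and erythroid markers (1 of 4 tested fell in both) to 215 to 311 CPM at baseline, 99.3 to 174 CPM with vehicle and 123 to 219 CPM with NSC. Some other sums rest mostly on 1 gene, as the erythroid sum does on *Alas2* (mean 152 CPM at baseline). At baseline the stellate and fibroblast sum rests mostly on *Dcn* (mean 124 CPM) and the cholangiocyte sum on *Spp1* (mean 33.2 CPM). *Alas2* was the erythroid gene that fell (-1.83, SE 0.38, adjusted p = 0.00861 and -1.60, SE 0.38, adjusted p = 0.0105), and the globin genes were not called. The part of cell composition in the changes of the conjugation enzymes was not tested.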

How the data were processed

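RNA was extracted from whole liver with Trizol and RNeasy columns, and poly(A)-selected, strand-marking libraries (TruSeq Stranded mRNA) were sequenced from 9 livers. Per the submitters' processing notes, the authors aligned reads with STAR 2.6.1 and counted them per gene with featureCounts of Subread 1.5.1. The notes name the human build hg38, but the gene identifiers and coordinates in the deposited table are those of mouse, and the deposited lengths of the 9 *Ugt1a* genes equal their exonic lengths in GENCODE M21 (GRCm38.p6). The authors deposited 1 table of raw counts per gene and of FPKM values, and the deposited FPKM equalled the count divided by the library total and by the gene length plus 1 base (largest relative difference 9.89e-07). How fragments on exons shared by several genes were counted is not given in the sources used here.

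From the counts, log2 fold changes were fitted with edgeR 4.0.16 in R 4.3.3 (TMM factors, filterByExpr, quasi-likelihood test with robust dispersion, group as the only term, all 9 libraries in 1 fit) over 15024 genes, with Benjamini-Hochberg adjustment over all of them. Each group holds 3 separate samples, and library totals ranged from 23997363 to 42887589 counts. No replicates agreed within sampling noise. Intervals on count ratios are exact binomial intervals at 95% and cover counting error only. Promoter windows came from the RefSeq table for GRCm38.p6. Alternatives were DESeq2 1.42.0, edgeR's exact test, other scaling and filters, a replicate term, a fit of only the 2 groups compared and leaving out each library. The test was checked on simulated counts.

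The genes and lists were chosen with earlier results of these data known. Genes with values in the text were the most abundant of each subfamily, the called genes with the smallest adjusted p from baseline, the 8 with the smallest p between treatments, genes set by role, and called genes of the lists. *Gstm4*, *Gstm5*, *Gstm6*, *Gstm7*, *Gstt2*, *Ugt1a8*, *Ugt1a10*, *Ugt2a1*, *Ugt2b37*, *Sult2a2* and *Sult4a1*, *Cenpc1* and *Utp3* are named beyond that rule, after their values were seen. Protein sequences were not analysed here.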

Additional observations from a re-analysis of the deposited data

Results flagged for a closer look

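*Ugt2b34* was the gene in which the treatments moved to opposite sides of baseline in every liver. The 3 vehicle livers lay below the mean baseline level and the 3 NSC livers above it, and the log2 difference between NSC and vehicle was 0.77. In edgeR's quasi-likelihood test this difference had an adjusted p = 0.0994, which did not pass the threshold, and it was called without NSC replicate 1, in edgeR's exact test and in DESeq2.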

How the results depend on the processing

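With vehicle, the count of genes called ranged from 18 to 36 when single libraries were left out (30 with all libraries). It was 38 when only the 2 groups compared were fitted, where 30.5% of all genes were called. It was 18 without baseline replicate 1, 18 without baseline replicate 3 and 19 without vehicle replicate 1, and 6 with the added fold threshold of 1.5 on the log2 scale. With NSC it ranged from 16 (without baseline replicate 1) to 30 (25 with all libraries), and was 2 with the fold threshold. With only the 2 groups compared in the fit, the NSC count was 23, where 31.7% of all genes were called. Between NSC and vehicle it ranged from 0 to 8 (8 without NSC replicate 1) and was 1 with all genes of at least 1 count, 4 in edgeR's exact test and 6 in DESeq2. Counts of the other pathway genes ranged from 18 to 32 with vehicle, from 21 to 28 with NSC and from 0 to 13 between treatments (13 without NSC replicate 1), and were 2 and 2 from baseline with the fold threshold. The summed UGT level with *Ugt1a1* as the only *Ugt1a* gene was 0.906 of baseline with NSC and 1.59 times vehicle. This sum, and leaving out libraries for the other pathway genes, the summed levels and the chromosome 5 block, were chosen after seeing the data. With library size only, the NSC calls were 5 higher and 18 lower, against 2 and 23 with TMM, and the median of all genes moved to 0.15. Fewer libraries lower the power of the test, and otherwise the cause was not tested.

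The log2 fold change of some genes that were not called turned sign when single libraries were left out. From baseline to NSC it ranged from -0.029 to 1.63 for *Gstm3* and from -0.0063 to 0.43 for *Sult1b1* (both lowest without NSC replicate 3), from -0.26 to 0.13 for *Ugt2b36* and from -0.38 to 0.059 for *Ugt2b5* (both highest without baseline replicate 1) and from -0.95 to 0.19 for *Gsta4* (highest without NSC replicate 1). *Ugt2b36* was also above 0 when NSC replicate 1 (0.08) or replicate 2 (0.05) was dropped, and was 0.10 with library size only. From baseline to vehicle the range was from -0.034 to 0.36 for *Sult1d1*, below 0 without vehicle replicate 3 and without baseline replicate 3. Between treatments it was from -0.23 to 0.77 for *Gstm1* and from -0.28 to 0.76 for *Gstp1*, lowest without NSC replicate 3 and highest without NSC replicate 1.

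Correlations of deviations between libraries ran from -0.048 to 0.134 for the same replicate number and from -0.115 to 0.066 for different numbers. Both ranges are weak and overlap, so they do not settle whether the replicate numbers pair the samples. With the replicate block, 30 genes were called with vehicle, 25 with NSC and 0 between treatments. Genes with under 10 counts in a library, such as *Sult1e1*, *Sult2a7* and *Ugt2a1*, were limited by depth.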

Other observations

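Besides *2810007J24Rik* (*Sult2a8*), RefSeq names 2 further genes of the table as sulfotransferases that the name rule did not take. *Gm4794* (*Sult3a2*) had 0 counts in every library and *Gm766* (*Sult6b2*) had at most 2. *Sult2a8* differed between NSC and vehicle by 0.83 on the log2 scale (unadjusted p = 0.0635 in edgeR's quasi-likelihood test), which was not called.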
